A study of Mus musculus with 6 samples.

Results

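The proteins that fold, modify and dispose of secretory proteins in the endoplasmic reticulum (ER), and the sensors that raise their production when folding fails, were followed through 34 genes in *Phf2* KO and control C2C12 cells. The genes were taken as the rows of the deposited count matrix whose symbol was on a fixed list of ER chaperones, disulfide and collagen modifying enzymes, degradation factors and stress sensors. All 34 were found among the 55401 genes of the matrix. Every one of them had enough counts to be tested, as did 17310 genes in all.

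The study asked what the histone demethylase PHF2 does during muscle cell differentiation. C2C12 cells, an established mouse myoblast line that forms multinucleate myotubes once serum is lowered, were transfected with a pool of plasmids carrying 4 guide RNAs against *Phf2*, Cas9 and the fluorescent reporter ZsGreen. The sorted cells were used as a pool and were not cloned. Control cells, labelled wild type, were mock cells that received the same kind of plasmid without a *Phf2* guide. Both groups were kept in DMEM with 2% horse serum and antibiotics, and poly(A) RNA was sequenced 2 d post differentiation in 3 control and 3 *Phf2* KO libraries. The libraries of each group were wells of 1 experiment grown from 1 pool, so p-values measure the spread between these wells, and differences between the pools cannot be told apart from an effect of *Phf2*.

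Proteins bound for the cell surface or the matrix enter the ER through the Sec61 channel, where the Hsp70 chaperone BiP, lectin chaperones and protein disulfide isomerases fold them. Chains that fail are sent back to the cytosol and degraded, a route known as ER-associated degradation (ERAD). When unfolded chains accumulate, the membrane sensors IRE1, ATF6 and PERK start the unfolded protein response: XBP1 and ATF6 raise the transcription of chaperone and ERAD genes, and PERK slows translation and favours that of ATF4. Differentiating muscle cells make large amounts of membrane and matrix protein, and collagen in particular needs its own chaperone and hydroxylases in the ER.

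Library totals ranged from 52526109 to 67502788 estimated counts. *Phf2* itself, on chromosome 13 (chr13:48801750-48871119, GRCm38), was at 102, 95.5 and 105 CPM in the control libraries and 41.1, 37.6 and 38.6 CPM in the *Phf2* KO libraries. The groups did not overlap, and the *Phf2* KO mean of 39.1 ± 1.78 CPM (SD, n = 3) was 38.8% of the control mean of 101 ± 4.73 CPM (log2 fold change of -1.37, SE 0.055, adjusted p = 8.324e-09 in edgeR's quasi-likelihood test). CPM stands for counts scaled to the library total after TMM scaling, which evens out composition differences between libraries. Across all genes tested, 1122 (6.48%) passed an adjusted p of 0.05, 557 of them higher (3.22%) and 565 lower (3.26%) in *Phf2* KO cells.

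Many genes of this set are known targets of a short promoter sequence, the ER stress element, to which ATF6 binds together with the factor NF-Y. The element reads CCAAT, any 9 bases, then CCACG, and it was searched on both strands of RefSeq promoters (GRCm38.p6), each 250 bases before to 50 bases after the transcription start. RefSeq promoters were matched for 29 of the 34 genes, all but *Hyou1*, *Derl1*, *Atf6*, *Manf* and *Plod2*. The exact element was found in 9 of the 29 (31.0%) and in 37 of all 27025 promoters (0.137%). These 9 genes were *Hspa5*, *Hsp90b1*, *Calr*, *Canx*, *Pdia6*, *Dnajc3*, *Creld2*, *Syvn1* and *Derl3*. With 1 mismatch allowed in the fixed letters, 14 of the 29 (48.3%) and 466 of all promoters (1.72%) held it. A match to these letters is a description of the sequence and was not tested for binding in these cells.

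The sites shown lie before the main chaperone genes (*Hspa5*, *Hsp90b1* and *Calr*), before *Syvn1*, the ERAD gene that fell, before *Creld2* and *Pdia6*, whose libraries did not overlap between the groups, and before the barely expressed *Derl3*. Each is written 5′ to 3′ on the strand of the match with 15 bases on either side, and capitals mark the fixed letters of the element. *Hspa5* (chr2:34772010-34772058, plus strand) has its element 46 bases before the start, *Syvn1* (chr19:6046517-6046565, plus strand) 25 bases before it. *Hsp90b1* holds a pair of elements, at chr10:86705623-86705671 on the minus strand and at chr10:86705518-86705566 on the plus strand. *Calr* (chr8:84847060-84847108, plus strand), *Creld2* (chr15:88819505-88819553, minus strand), *Pdia6* (chr12:17266476-17266524, plus strand) and *Derl3* (chr10:75893227-75893275, minus strand) hold 1 element each. The elements of *Canx* and *Dnajc3*, whose groups overlapped, are not shown, so the choice of sites followed these results in part.
Hspa5: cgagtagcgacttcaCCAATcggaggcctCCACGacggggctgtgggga
Syvn1: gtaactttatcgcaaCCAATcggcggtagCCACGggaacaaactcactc
Hsp90b1, distal: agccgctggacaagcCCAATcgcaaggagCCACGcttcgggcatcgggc
Hsp90b1, proximal: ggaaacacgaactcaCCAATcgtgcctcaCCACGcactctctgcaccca
Calr: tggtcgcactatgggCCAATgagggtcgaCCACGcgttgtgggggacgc
Creld2: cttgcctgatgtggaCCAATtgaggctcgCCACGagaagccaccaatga
Pdia6: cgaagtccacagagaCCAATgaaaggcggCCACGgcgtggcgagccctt
Derl3: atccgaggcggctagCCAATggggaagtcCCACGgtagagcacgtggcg

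A second form, the ER stress element II, reads ATTGG, any base, then CCACG. It was found in *Dnajb11* and *Herpud1*, 2 of the 29 genes (6.90%), and in 12 of all promoters (0.0444%). The *Herpud1* site lies at chr8:94386362-94386402 on the plus strand, 41 bases before the start.
Herpud1: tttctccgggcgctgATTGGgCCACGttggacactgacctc

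Whole promoters are given for the ERAD genes *Edem1* and *Syvn1*, which differed between the groups in opposite directions, and for *Hspa5* as the reference gene of the response. They are written on the gene's own strand, which is the plus strand for all of them, at chr6:108828391-108828690 for *Edem1*, chr19:6046326-6046625 for *Syvn1* and chr2:34771840-34772139 for *Hspa5*. Capitals mark the ER stress element and, in *Hspa5* alone among the 29, the letters TGACGTG, the unfolded protein response element bound by XBP1 and ATF6. TGACGTG was held by 2.22% of all promoters. The *Edem1* window held none of the motifs searched.
Edem1: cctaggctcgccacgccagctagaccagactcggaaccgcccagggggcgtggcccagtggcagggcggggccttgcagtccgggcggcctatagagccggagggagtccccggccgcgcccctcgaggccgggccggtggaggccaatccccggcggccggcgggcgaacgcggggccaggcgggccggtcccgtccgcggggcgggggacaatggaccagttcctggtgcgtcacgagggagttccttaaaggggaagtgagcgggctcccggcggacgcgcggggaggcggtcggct
Syvn1: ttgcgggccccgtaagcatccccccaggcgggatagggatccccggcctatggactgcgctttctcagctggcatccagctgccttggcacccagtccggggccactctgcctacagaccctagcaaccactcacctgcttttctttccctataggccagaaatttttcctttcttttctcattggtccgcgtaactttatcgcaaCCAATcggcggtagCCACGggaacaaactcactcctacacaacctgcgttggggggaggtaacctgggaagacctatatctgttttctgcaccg
Hspa5: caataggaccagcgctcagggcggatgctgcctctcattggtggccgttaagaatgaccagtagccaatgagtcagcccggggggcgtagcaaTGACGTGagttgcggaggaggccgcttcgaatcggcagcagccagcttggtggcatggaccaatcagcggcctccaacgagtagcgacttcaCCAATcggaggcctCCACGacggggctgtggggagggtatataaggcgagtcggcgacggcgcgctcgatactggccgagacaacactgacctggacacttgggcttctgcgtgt

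*Phf2* KO cells differed little from control cells in these genes. *Edem1*, a lectin-like factor of ERAD, rose by 17.1%, and *Syvn1*, the ubiquitin ligase of ERAD, and *Hyou1*, an exchange factor of BiP, fell by 14.98% and 10.4%. These 3 of 34 genes (8.82%) were the ones past an adjusted p of 0.05, beside 6.48% of all genes tested. Whether a lower level in bulk RNA comes from fewer cells of a kind or from less RNA per cell cannot be told apart. Levels were higher in *Phf2* KO cells for 10 genes and lower for 24 by the sign of the fold change, with a median log2 fold change of -0.064, beside -0.00096 over all genes tested. The *Phf2* KO libraries lay wholly below the control libraries for 9 genes (26.5%) and wholly above for 2 (5.88%), 11 in all (32.4%). Of all genes tested, 12.2% lay wholly below, 12.9% wholly above and 25.1% did either.

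The chosen genes are abundant, with a median of 6932 counts beside 885 for all genes tested, and small differences separate libraries more often in abundant genes. Among all genes with a mean over 100 CPM, 40.1% had groups that did not overlap and 15.8% passed the test. The *Phf2* KO libraries lay wholly above for 23.2% of all genes at that level and wholly below for 16.9%. Of the 20 ER genes at that level 5 did not overlap, 1 above and 4 below, and 1 passed. Among all genes with a mean of 10 to 100 CPM, 29.4% did not overlap, 15.9% above and 13.4% below, and 8.28% passed. Of the 13 ER genes at that level 6 did not overlap, 1 above and 5 below, and 2 passed. Why more ER genes lay below than above was not tested.

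The size of the differences was bounded closely. The log2 fold change was under 0.1 in absolute value for 23 genes, between 0.1 and 0.2 for 6 and over 0.2 for 5. For 32 of the 34 the 95% interval of the fold change lay within a change of 1.3-fold in either direction, and only the intervals of *Sdf2l1* and *Derl3* reached past it. The interval excluded 0 for 7 genes on the lower side (*Sdf2l1*, *Syvn1*, *Creld2*, *Hyou1*, *Atf6*, *Manf* and *Plod1*) and for *Edem1* on the higher side. These were the 8 genes (23.5%) with an unadjusted p under 0.05 in edgeR's quasi-likelihood test, beside 19.4% of all genes tested.

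**Figure D1:**
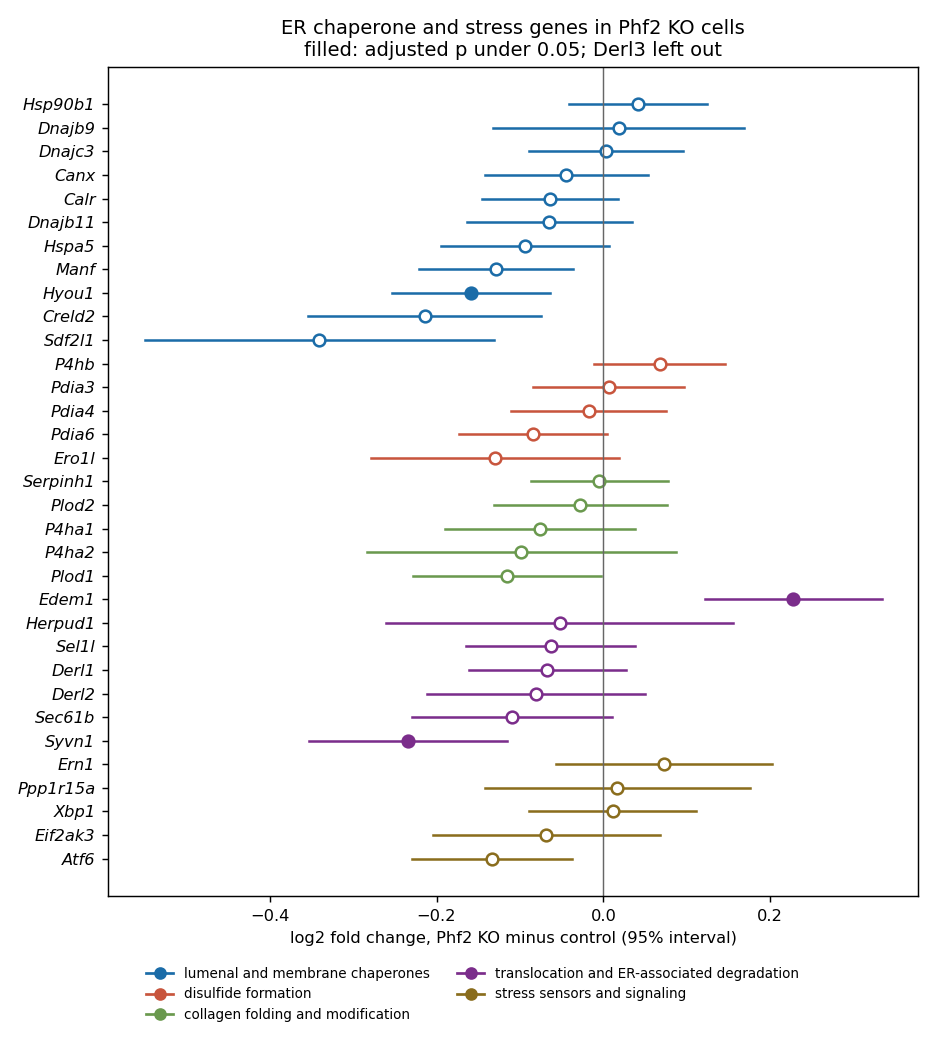
Log2 fold change of *Phf2* KO minus control for 33 of the ER genes, with the 95% interval of edgeR's quasi-likelihood fit on the x axis, one gene per line, coloured by role and filled where the adjusted p was under 0.05 (n = 3 libraries a group). Most points lie within 0.1 of 0, *Edem1* stands to the right and *Sdf2l1*, *Syvn1* and *Creld2* to the left, and *Derl3*, whose interval runs from -1.30 to 2.22, is not drawn.

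Levels per transcript length, as the deposited TPM, ordered the genes over a wide range. *Serpinh1*, the collagen chaperone HSP47, was the most abundant of the 34 at 1320 TPM (1289 to 1349 over the 6 libraries), and *Calr* followed at 1187 TPM (1118 to 1247). The library ranges of these 2 genes did not overlap. *P4hb* (794 TPM) and *Hsp90b1* (712 TPM) came next with ranges that overlapped, then *Hspa5* (477 TPM) and *Pdia3* (459 TPM), whose ranges overlapped too, and then *Canx* (333 TPM) and *Pdia6* (293 TPM), again with overlap. Of the sensors, *Atf6* stood at 47.0 TPM, and *Eif2ak3* and *Ern1* were both at 16.4 TPM with ranges that overlapped. *Xbp1*, the transcription factor downstream of IRE1, ranked 13 of 34 at 150 TPM. *Derl3* was at 0.337 TPM, well under every other gene of the set.

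Summed over the 34 genes, TPM was 7616, 7892 and 7699 in the control libraries and 7398, 7691 and 7814 in the *Phf2* KO libraries. The mean sums were 7736 ± 142 and 7635 ± 214 TPM (SD, n = 3), and the groups overlapped. The genes held between 0.917% and 0.974% of all counts in a library.

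**Figure D2:**
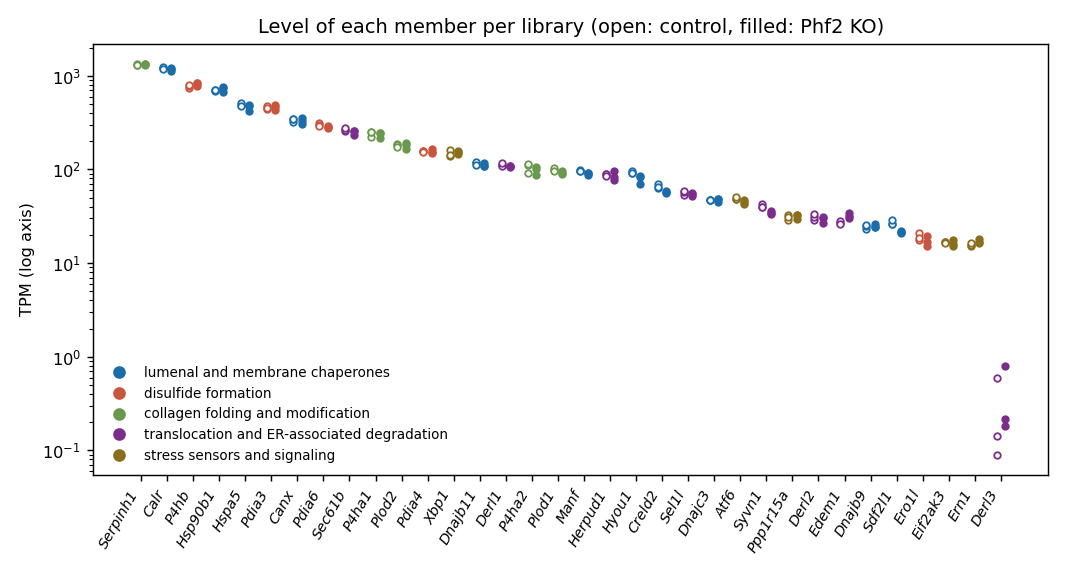
TPM of each of the 34 genes on a log axis, one point per library (open, 3 control; filled, 3 *Phf2* KO), ordered by mean level and coloured by role. The level runs from 1320 TPM for *Serpinh1* to 0.337 TPM for *Derl3*, and the open and filled points of a gene lie close together beside the differences between genes.

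Of the 11 chaperones and their partners, *Hyou1* fell, none rose, and the rest did not pass the test (median log2 fold change -0.065). *Hspa5* encodes BiP, the ATP-driven chaperone that also holds the stress sensors inactive. It was at 791, 829 and 760.5 CPM in the control libraries and 696, 769 and 765 CPM in the *Phf2* KO libraries. *Phf2* KO 1 was the lowest library and the groups overlapped, with a log2 fold change of -0.094 (95% interval -0.19 to 0.0065, adjusted p = 0.294 in edgeR's quasi-likelihood test). *Hsp90b1*, the ER form of Hsp90, was at 907, 922 and 912 CPM in the control libraries and 896, 959 and 966 CPM in the *Phf2* KO libraries. The groups overlapped and the log2 fold change of 0.042 had a 95% interval of -0.041 to 0.12 (adjusted p = 0.632 in the quasi-likelihood test). The lectin chaperones, which hold glycoproteins until their sugars are trimmed, gave log2 fold changes of -0.064 for *Calr* and -0.044 for *Canx*, with adjusted p = 0.401 and 0.679 in the same test.

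*Hyou1* (chr9:44379490-44392369), which helps BiP to exchange its nucleotide and is itself a large chaperone, was at 160.4, 167 and 165 CPM in the control libraries and 142, 150.05 and 149.6 CPM in the *Phf2* KO libraries. All *Phf2* KO libraries lay below all control libraries, and the means were 164 ± 3.44 and 147 ± 4.77 CPM (SD, n = 3). The log2 fold change of -0.16 (SE 0.044) passed the threshold narrowly in edgeR's quasi-likelihood test (adjusted p = 0.048), did not pass in edgeR's exact test (adjusted p = 0.107), and did not pass once any 1 of the 6 libraries was left out (adjusted p from 0.0971 without control 1 to 0.187 without control 2).

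*Sdf2l1*, a partner of BiP and of the cochaperone DNAJB11, was at 13.3, 13.7 and 14.7 CPM in the control libraries and 11.0, 10.8 and 11.0 CPM in the *Phf2* KO libraries. The groups did not overlap, and the means were 13.9 ± 0.712 and 11.0 ± 0.122 CPM. At -0.34 on the log2 scale (SE 0.097) it had the largest lower difference of the 34, but it did not pass the threshold (adjusted p = 0.0537 in edgeR's quasi-likelihood test). *Creld2*, a secretory protein that is made in ER stress and interacts with disulfide isomerases, was at 40.0, 44.7 and 41.1 CPM in the control libraries and 36.7, 37.4 and 34.4 CPM in the *Phf2* KO libraries. Here too the groups did not overlap, with a log2 fold change of -0.21 (SE 0.065, adjusted p = 0.0692 in the quasi-likelihood test). *Manf*, a small secreted protein that binds BiP, was at 98.6, 101 and 98.8 CPM in the control libraries and 92.8, 89.5 and 90.8 CPM in the *Phf2* KO libraries, again without overlap (log2 fold change of -0.13, adjusted p = 0.0997 in the quasi-likelihood test). *Manf* overlaps *Rbm15b* on the same strand and *Dcaf1* on the other, so its count may hold reads of these neighbours, whose log2 fold changes were 0.060 and 0.023.

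The J-domain cochaperones, which stimulate the ATPase of BiP, lay close to control. *Dnajb9*, which also restrains IRE1, was at 26.2, 28.3 and 29.2 CPM in the control libraries and 27.9, 27.8 and 29.1 CPM in the *Phf2* KO libraries. The groups overlapped (log2 fold change of 0.019). *Dnajb11* gave a log2 fold change of -0.065 and *Dnajc3*, known as P58IPK, 0.0030, and both had groups that overlapped and adjusted p of at least 0.507 in the quasi-likelihood test.

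None of the 5 genes of disulfide formation passed the test (median log2 fold change -0.018). *P4hb* encodes protein disulfide isomerase, which is also the beta subunit of collagen prolyl 4-hydroxylase. It was at 989, 1041 and 1039 CPM in the control libraries and 1049.9, 1097 and 1070.2 CPM in the *Phf2* KO libraries. The *Phf2* KO libraries all lay above the control libraries, by a mean of 4.80% (log2 fold change of 0.068, 95% interval -0.011 to 0.15, adjusted p = 0.347 in edgeR's quasi-likelihood test). *Pdia6*, an isomerase that also acts on the IRE1 and PERK sensors, was at 305, 297 and 285 CPM in the control libraries and 278, 279 and 279 CPM in the *Phf2* KO libraries. It lay below control in all libraries, without passing the test (log2 fold change of -0.084, adjusted p = 0.288 in the quasi-likelihood test). *Pdia3*, the isomerase that works with the lectin chaperones, and *Pdia4* had overlapping groups and log2 fold changes of 0.0066 and -0.018. *Ero1l*, the oxidase that recharges protein disulfide isomerase, had means of 42.3 ± 3.57 and 38.7 ± 1.43 CPM, with groups that overlapped (log2 fold change of -0.13, adjusted p = 0.334 in the quasi-likelihood test).

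The 5 genes of collagen folding and modification were all slightly lower by sign, and none passed the test (median log2 fold change -0.076). No gene of this group had libraries that separated. *Serpinh1*, which binds the folded collagen triple helix, was at 1333, 1373 and 1337 CPM in the control libraries and 1394, 1358 and 1277 CPM in the *Phf2* KO libraries. The lowest and the highest of the 6 values were both from *Phf2* KO cells, and the log2 fold change of -0.0048 had a 95% interval of -0.087 to 0.078 (adjusted p = 0.972 in edgeR's quasi-likelihood test). The catalytic subunits of prolyl 4-hydroxylase, which stabilise the triple helix, gave log2 fold changes of -0.076 for *P4ha1* and -0.098 for *P4ha2*. Of the lysyl hydroxylases, which prepare collagen for cross-links, *Plod2* gave a log2 fold change of -0.028. *Plod1* was at 149, 155 and 144 CPM in the control libraries and 147, 137 and 129.5 CPM in the *Phf2* KO libraries. Its groups overlapped, and its 95% interval of -0.23 to -0.0028 excluded 0 while the adjusted p did not pass (log2 fold change of -0.12, adjusted p = 0.246 in the quasi-likelihood test).

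Of the 8 genes of translocation and ERAD, *Edem1* rose and *Syvn1* fell. *Edem1* (chr6:108828641-108859356), which recognises trimmed glycoproteins and hands them to degradation, was at 70.8, 73.4 and 69.4 CPM in the control libraries and 85.7, 79.7 and 84.7 CPM in the *Phf2* KO libraries. All *Phf2* KO libraries lay above all control libraries, and the means were 71.2 ± 2.04 and 83.4 ± 3.22 CPM (SD, n = 3; log2 fold change of 0.23, SE 0.049, adjusted p = 0.013 in edgeR's quasi-likelihood test). *Edem1* still passed in edgeR's quasi-likelihood test with any 1 library left out (adjusted p of 0.0246 to 0.0453). *Syvn1* (chr19:6046576-6053712) encodes HRD1, the ubiquitin ligase of the retrotranslocation channel. It was at 66.5, 65.4 and 63.6 CPM in the control libraries and 55.6, 58.5 and 52.1 CPM in the *Phf2* KO libraries. All *Phf2* KO libraries lay below all control libraries, and the means were 65.2 ± 1.44 and 55.4 ± 3.21 CPM (log2 fold change of -0.23, SE 0.055, adjusted p = 0.0211 in the quasi-likelihood test). *Syvn1* no longer passed without control 1 (adjusted p = 0.0669 in the same test), control 2 (adjusted p = 0.0939) or *Phf2* KO 3 (adjusted p = 0.0796). Neither gene passed when limma was run on log2(TPM + 1), with an adjusted p of 0.135 for *Edem1* and 0.132 for *Syvn1*. *Syvn1* overlaps *Mrpl49* on the opposite strand, and how strand was handled in counting is not given in the sources used here. *Mrpl49* had means of 32.1 ± 0.927 and 28.3 ± 2.84 CPM (log2 fold change of -0.18, adjusted p = 0.216 in the quasi-likelihood test), and its part in the *Syvn1* value was not tested.

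*Sel1l*, the adaptor that holds HRD1 in its complex, was at 151, 164 and 166 CPM in the control libraries and 152, 155 and 153 CPM in the *Phf2* KO libraries. The groups overlapped (log2 fold change of -0.063, adjusted p = 0.528 in edgeR's quasi-likelihood test). *Herpud1*, a stress-induced membrane protein of the same complex, was at 78.9, 80.1 and 75.5 CPM in the control libraries and 87.1, 73.4 and 65.6 CPM in the *Phf2* KO libraries. *Phf2* KO 1 was the highest of all 6 libraries and *Phf2* KO 3 the lowest, and the means were 78.1 ± 2.37 and 75.4 ± 10.9 CPM (log2 fold change of -0.053). *Sec61b*, a subunit of the translocation channel, was at 65.2, 67.9 and 67.8 CPM in the control libraries and 64.9, 63.7 and 57.7 CPM in the *Phf2* KO libraries. The groups did not overlap, and *Phf2* KO 3 was the lowest (log2 fold change of -0.11, adjusted p = 0.306 in the quasi-likelihood test).

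Derlins are membrane proteins of the retrotranslocation channel. *Derl1* had control values of 164.7, 159.5 and 170.7 CPM and *Phf2* KO values of 159.1, 157.6 and 155.7 CPM, which did not overlap (log2 fold change of -0.067, adjusted p = 0.459 in edgeR's quasi-likelihood test), and *Derl2* had groups that overlapped (log2 fold change of -0.081). *Derl3* was near the floor, with 3, 32 and 9 estimated counts in the control libraries and 12, 9 and 45 in the *Phf2* KO libraries. Its log2 fold change of 0.46 had an SE of 0.82, so no difference was detectable with so few counts and this spread between libraries of a group.

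**Figure D3:**
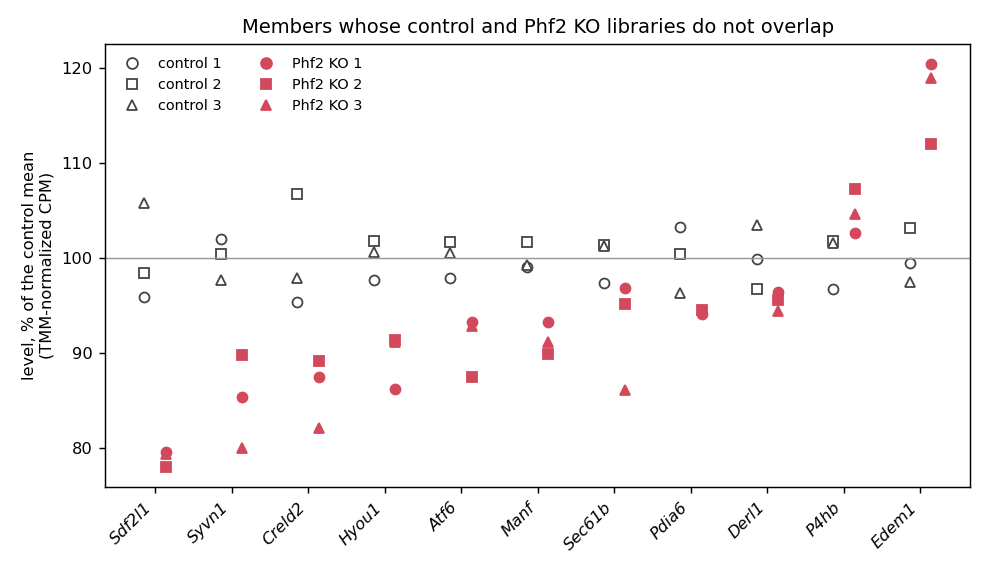
Level of the 11 ER genes whose groups did not overlap, as a percentage of the control mean of TMM-normalized CPM, one point per library (open, 3 control; filled, 3 *Phf2* KO). *Sdf2l1*, *Syvn1* and *Creld2* lie lowest and *Edem1* highest in the *Phf2* KO libraries, and the gap between the groups is small for *Derl1*, *P4hb* and *Pdia6*.

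None of the 5 sensor and signaling genes passed the test (median log2 fold change 0.011). *Ern1* encodes IRE1, which cuts *Xbp1* mRNA to start its splicing. It was at 48.1, 50.1 and 53.6 CPM in the control libraries and 53.5, 50.5 and 55.5 CPM in the *Phf2* KO libraries. *Xbp1*, the factor made from that spliced mRNA, was at 119.7, 129.6 and 117 CPM in the control libraries and 124, 122 and 123 CPM in the *Phf2* KO libraries. Both had groups that overlapped, with log2 fold changes of 0.073 and 0.011. The deposited values are summed per gene, and the spliced form of *Xbp1* was not analysed here.

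*Atf6*, the sensor that is cleaved in the Golgi to release a transcription factor, was at 169, 175 and 173 CPM in the control libraries and 161, 151 and 160.2 CPM in the *Phf2* KO libraries. All *Phf2* KO libraries lay below all control libraries, without passing the threshold (log2 fold change of -0.13, SE 0.045, adjusted p = 0.104 in edgeR's quasi-likelihood test). *Eif2ak3* encodes PERK, the kinase that slows translation by phosphorylating eIF2α. It was at 34.2, 34.8 and 34.2 CPM in the control libraries and 31.7, 32.4 and 34.4 CPM in the *Phf2* KO libraries. *Phf2* KO 3 lay within the control range (log2 fold change of -0.068, adjusted p = 0.633 in the quasi-likelihood test). *Ppp1r15a*, the stress-induced GADD34 that directs a phosphatase to eIF2α, was at 31.3, 36.5 and 33.0 CPM in the control libraries and 35.6, 31.9 and 34.5 CPM in the *Phf2* KO libraries. Its groups overlapped, with a log2 fold change of 0.017.

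On the list drawn up for the PERK arm, named ATF4 and CHOP response, 1 of 19 genes passed the test (median log2 fold change -0.041). This was *Ppp1r15b*, the constitutive counterpart of *Ppp1r15a*, which rose from 134 ± 2.81 to 155 ± 8.93 CPM (log2 fold change of 0.21, adjusted p = 0.0212 in edgeR's quasi-likelihood test). *Atf4*, the transcription factor of this arm, had means of 305 ± 13.3 and 295 ± 16.5 CPM and *Ddit3*, which encodes CHOP, 35.0 ± 2.35 and 36.1 ± 0.842 CPM. Neither passed the test (adjusted p = 0.677 in the quasi-likelihood test and 0.802), and both were named after their values had been seen. None of 16 other stress transducers passed (median log2 fold change 0.0024). An unadjusted p under 0.05 in the quasi-likelihood test was found for 5 of the 16, beside 19.4% of all genes tested.

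Among 36 other folding enzymes of the ER lumen, 3 rose and 1 fell (median log2 fold change 0.041). *Creld1*, the paralog of *Creld2*, fell from 41.8 ± 3.41 to 31.1 ± 1.64 CPM (log2 fold change of -0.42, adjusted p = 0.00305 in edgeR's quasi-likelihood test). *Ppic*, a peptidyl-prolyl isomerase, rose from 208 ± 2.99 to 237 ± 6.03 CPM, and the calcium-binding proteins *Rcn1* and *Rcn2* rose with log2 fold changes of 0.18 and 0.17. The summed TPM of all 38 genes of this list, tested or not, was 4158 ± 52.9 in control and 4387 ± 25.4 in *Phf2* KO cells (SD, n = 3). The 11 chaperones and their partners summed to 3207 ± 69.9 and 3114 ± 161 TPM. These sums overlapped between the groups, at 3155 to 3286 TPM in control and 2937 to 3249 TPM in *Phf2* KO cells.

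Among 24 genes of the translocon and the signal peptidase, *Ssr3*, a subunit of the translocon-associated protein complex, rose from 465 ± 16.5 to 519.6 ± 6.97 CPM (log2 fold change of 0.16, adjusted p = 0.029 in edgeR's quasi-likelihood test), and none fell. None of 28 genes of N-glycosylation and glucose trimming passed (median log2 fold change -0.035). An unadjusted p under 0.05 in the same test was found for 5 of the 28, beside 19.4% of all genes tested. Of 27 other ERAD genes, *Fam8a1*, a cofactor of HRD1, fell from 92.4 ± 0.789 to 82.3 ± 2.26 CPM (log2 fold change of -0.17, adjusted p = 0.0375 in the quasi-likelihood test), and none rose. Outside the ER, 1 of 37 cytosolic and mitochondrial chaperones passed, *Hspbp1*, an exchange factor of cytosolic Hsp70, which fell from 24.4 ± 1.36 to 19.4 ± 0.808 CPM (log2 fold change of -0.33, adjusted p = 0.0215 in the quasi-likelihood test).

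The collagens themselves, the main clients of *Serpinh1* and the hydroxylases, changed in both directions. Of 14 fibrillar and associated procollagen genes, 5 rose and 3 fell (median log2 fold change 0.014). *Col6a2* rose from 699.9 ± 46.2 to 956 ± 66.0 CPM (log2 fold change of 0.45, adjusted p = 0.000773 in edgeR's quasi-likelihood test) and *Col6a1* by 0.30 on the log2 scale. *Col11a1* fell from 45.3 ± 1.94 to 28.4 ± 1.86 CPM (log2 fold change of -0.67, adjusted p = 6.420e-05 in the quasi-likelihood test), and *Col5a3* and *Col18a1* had log2 fold changes of -0.53 and -0.23.

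Of 33 further genes of collagen maturation and export, 4 rose and 3 fell (median log2 fold change 0.016). *P4ha3*, the third catalytic subunit of prolyl 4-hydroxylase, rose from 41.6 ± 1.43 to 58.3 ± 4.98 CPM (log2 fold change of 0.49, adjusted p = 0.000582 in edgeR's quasi-likelihood test), whereas *P4ha1* and *P4ha2* did not pass the test. *Lox*, which forms collagen cross-links outside the cell, rose from 1518 ± 76.0 to 1842 ± 91.0 CPM (log2 fold change of 0.28, adjusted p = 0.00187 in the quasi-likelihood test). *Adamts14*, a procollagen peptidase, *Tmem38b*, an ER potassium channel, and *Loxl2*, a relative of *Lox*, fell, with log2 fold changes of -0.43, -0.35 and -0.30.

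**Figure D4:**
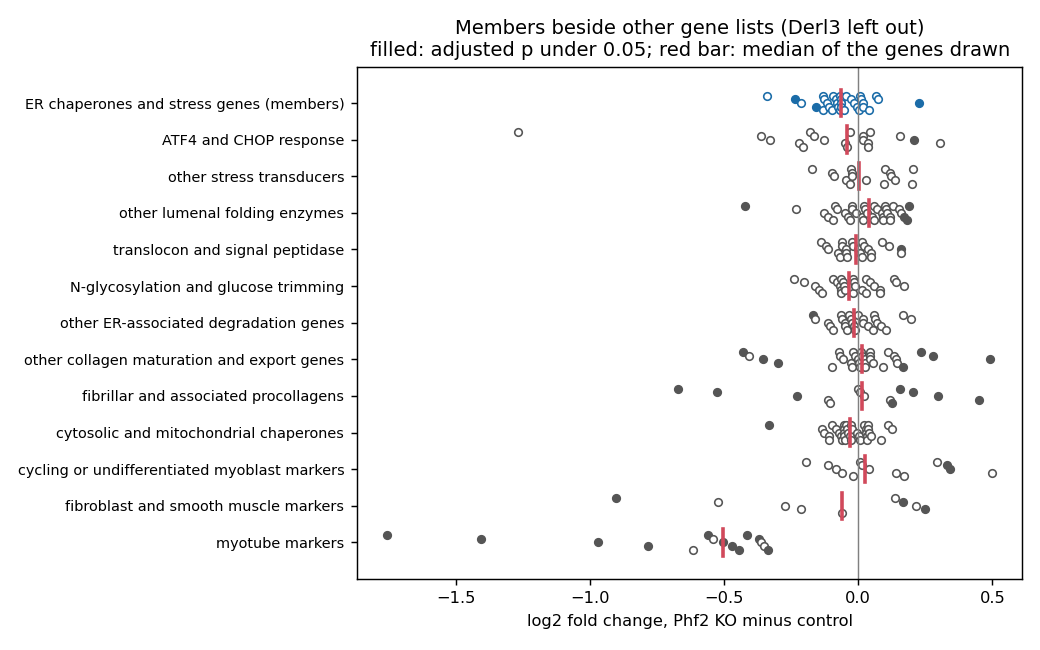
Log2 fold change of *Phf2* KO minus control for 33 of the ER genes and for the genes of 12 other lists, one point per gene, filled where the adjusted p of edgeR's quasi-likelihood test was under 0.05, with a red bar at the median of the genes drawn. The ER genes cluster near 0 between -0.34 and 0.23, the procollagens spread to both sides, and the myotube markers all lie below 0.

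The RNA of myotube markers moved with the groups. Of 15 such markers, 11 fell and none rose (median log2 fold change -0.505), beside 3.26% lower and 3.22% higher of all genes tested. The *Phf2* KO libraries lay below the control libraries for all 15, beside 12.2% of all genes tested. The paper had reported several of these markers, *Myog* and *Myh8* among them, as lower in these same libraries. The counts are therefore a description and not independent support. The summed TPM of the 15 markers was 9779, 9207 and 7761 in control and 6628, 5926 and 6383 in *Phf2* KO cells. None of the 15 was at 0 in any library. At a later day of differentiation the paper reported no significant difference in myotube diameter, total myotube area or fusion index. Of 14 markers of cycling or undifferentiated myoblasts, *Id2* and *Ccnd1* rose and none fell (median log2 fold change 0.027, 9 higher and 5 lower by sign). Their summed TPM was 444 to 518 in control and 574 to 577 in *Phf2* KO cells, a sum in which *Id3* had the largest part of the difference (means of 167 and 238 TPM, adjusted p = 0.0661 in the quasi-likelihood test). Over the 14 markers the log2 fold changes ran from -0.195 to 0.499. Of the proliferation markers, *Mki67*, *Top2a* and *Cdk1* had log2 fold changes of 0.0066, 0.015 and 0.039, and none of them passed the test. Of the whole list only *Id2* and *Ccnd1* passed, and the remaining values are not given singly. *Mki67*, *Top2a*, *Cdk1* and *Id3* were named after their values had been seen. Of 9 tested fibroblast and smooth muscle markers, *Tagln* and *Acta2* rose and *Dpt* fell (median log2 fold change -0.062, 4 higher and 5 lower by sign). Their summed TPM was 4150 to 4219 in control and 4764 to 4814 in *Phf2* KO cells, and *Acta2* alone made up 3167 to 3647 TPM of it. The fibroblast markers *Thy1* and *Tcf21* were at 0 in all 6 libraries. The part of these marker values in those of *Edem1*, *Syvn1*, *Hyou1* and the other ER genes was not tested.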

How the data were processed

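RNA sequencing (poly(A) selection, directional library kit) of 3 control and 3 *Phf2* KO wells, 6 libraries at 2 d post differentiation, was used, with groups taken from the titles. The authors aligned reads of 150 bp to mm10 with HISAT2 and obtained counts with StringTie. The versions, the annotation and the strand setting are not given in the sources used here. In the deposited matrix the values are estimated counts, given by the authors as whole numbers and not scaled by depth. For genes with 1 transcript and at least 500 counts, a count stood for a median of 74.98 to 74.99 covered bases (about 75), so the counts are not tallies of reads. The deposited TPM of the single-library tables, a signal scaled by the authors per library, was read from the rows of reference genes and used for levels per length. The authors' coverage column, of another unit, was used to check what a count stands for and nothing else. No column was left unmapped (0).

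After filterByExpr (minimum count 10) and TMM scaling, edgeR 4.0.16 (R 4.3.3) gave the quasi-likelihood test with robust dispersions and Benjamini-Hochberg adjustment over 17310 genes at a threshold of 0.05. Log2 fold changes used a prior count of 0.125, and intervals are at 95%. The precision is set by 3 libraries a group: exact permutation of single values cannot go below p = 0.1, so none was used. The procedure was tested on simulated data. The simulated fold changes were larger than those of the ER genes that passed, so this does not cover changes of their size. All 34 genes were named, with *Phf2*, genes overlapping a member, and at most 5 genes past the threshold of each other list, those with the largest change. The members and lists were chosen with earlier results of these data known. *Atf4*, *Ddit3*, *Id3*, *Mki67*, *Top2a*, *Cdk1*, *Dcn*, *Pdgfra*, *Lum* and *Pi16* were named after their values were seen. The other lists were ATF4 and CHOP response, other stress transducers, other lumenal folding enzymes, translocon and signal peptidase, N-glycosylation, other ERAD, collagen maturation and export, procollagens, cytosolic and mitochondrial chaperones, and markers of myotubes, of cycling or undifferentiated myoblasts and of fibroblasts and smooth muscle.

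Coordinates are those of GENCODE M21 (GRCm38), the same in the deposited tables for all 34 genes. Promoters are from RefSeq (GRCm38.p6), and the last 25 bases lay in a GENCODE transcript for 27 of 29. The amino acid response element TTGCATCA was searched too and was held by *Herpud1* and by 1.03% of all promoters. Protein sequences were not analysed here.

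Same-numbered libraries of the groups deviated together: for 10923 genes averaging 5 CPM or more, their distances from their own group's mean correlated at 0.250, 0.236 and 0.158 for equal numbers and at most at -0.013 for unequal ones. These are across genes, which are not independent. Distances from a group's own mean sum to 0, so positive values for equal numbers force negative ones on balance for unequal numbers. The study describes no pairing, so the replicate block was an alternative. The others were edgeR's exactTest, DESeq2 1.42.0, limma-voom (limma 3.58.1), other scalings and filters, limma on log2(TPM + 1) and log2(TPM + 0.1), an adjusted p under 0.01, and leaving out each library. Figures were drawn with matplotlib 3.10.9 in Python 3.11.15.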

Additional observations from a re-analysis of the deposited data

How the results depend on the processing

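The 11 alternatives counted here used all libraries and the threshold of 0.05, so the adjusted p under 0.01 is not among them. *Edem1* passed in 9 of 11 and in 6 of 6 with a library left out, *Syvn1* in 9 of 11 and 3 of 6, and *Hyou1* in 7 of 11 and 0 of 6. None of these genes passed at an adjusted p under 0.01. The replicate block called 1316 genes in place of 1122 and changed no call among the ER genes (1 higher, 2 lower). The number of ER genes called higher went from 1 to 0 with limma on log2(TPM + 1), on log2(TPM + 0.1) and at an adjusted p under 0.01. The number called lower went from 2 to 1 with exactTest (*Syvn1*), to 4 with a filter of 1 CPM in 3 libraries or more (*Creld2*, *Hyou1*, *Sdf2l1*, *Syvn1*), to 3 with DESeq2 and with upper-quartile scaling (*Hyou1*, *Sdf2l1*, *Syvn1*), to 0 with both TPM fits and at an adjusted p under 0.01, and to between 0 and 1 with a library left out. Without a filter it stayed at 2, with *Creld2* in place of *Hyou1*. *Sdf2l1* passed in 3 of 11 (lowest adjusted p 0.0404) and *Creld2* in 2 of 11 (lowest adjusted p 0.0446). Over all genes, the TPM fits called 195 (86 higher, 109 lower) and 192 (84 and 108), an adjusted p under 0.01 left 472 (204 and 268), and 468 to 1039 were called with a library left out, the fewest without control 2. DESeq2 called 1441. A stricter threshold leaves fewer genes by definition. The cause of the other differences was not tested. The median log2 fold change of the ER genes ranged from -0.069 to -0.040 with a library left out, the latter without control 2.

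The sign of the log2 fold change turned for 10 ER genes, none of which passed the test. With upper-quartile scaling it was -0.0037 for *Pdia3* and -0.0072 for *Dnajc3*, which was also at -0.0011 without a filter and at -0.00070 with the CPM filter. *Serpinh1* was at 0.0061 in both TPM fits. With a library left out, the lowest and highest values were -0.021 and 0.035 for *Pdia3*, -0.035 and 0.00077 for *Pdia4*, -0.027 and 0.050 for *Dnajb9*, -0.019 and 0.029 for *Dnajc3*, -0.17 and 0.039 for *Herpud1*, -0.46 and 1.72 for *Derl3*, -0.021 and 0.056 for *Xbp1*, -0.034 and 0.079 for *Ppp1r15a*, -0.032 and 0.031 for *Serpinh1*, and -0.059 and 0.017 for *Plod2*. Few counts, spread widely between libraries of a group, limit *Derl3* alone, at a mean of 18.3 counts. The annotation and strand setting of the counting limit *Syvn1*, *Manf* and *Derl2*, which overlap expressed genes.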
